A study of Mus musculus with 6 samples.

Results

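Night against day in the calf muscle of aged mice on a high-fat diet was read as ZT18 HF against ZT6 HF, 1 RNA-seq library a side, over the 20311 of 26294 genes in the table whose mean over all 6 libraries of the series was at least 1. That mean includes ZT18 HF, so genes read almost only there passed through it. The mice were male C57BL/6 animals of 24 to 26 months, bought in old age, and RD (regular diet), HF (high-fat diet) and HF.NOB (high-fat diet with 0.1% Nobiletin, a flavone from citrus peel) each gave 1 library at ZT6 and 1 at ZT18. The 2 HF libraries had no drug, the labels give 5 to 6 months of diet and the study's text a slightly shorter treatment, and no genotype beyond the strain is given. ZT is the time in hours since lights on, so ZT6 lies in the rest phase of a mouse and ZT18 in its active, feeding phase. The study describes replicate samples for its RNA-seq, but the table holds 1 column per condition and is titled as a mean. Each column is whole reads times 1 factor, as 1 library or a sum of reads would give, and is called 1 library here.

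The muscle clock is a feedback loop of transcription. CLOCK and BMAL1 (the product of Arntl) bind E-boxes and drive their own repressors, the PER and CRY proteins, as well as the nuclear receptors REV-ERBα and REV-ERBβ (Nr1d1 and Nr1d2), which silence Arntl through ROR elements that the RORs use to switch it on. In skeletal muscle the loop is known for timing glucose uptake, the choice between sugar and fat, and the muscle regulator Myod1, while feeding and adrenal glucocorticoids bring further daily signals.

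Libraries held 23248663 to 31837501 reads, and the deposited values are those reads times 1 factor per library, called scaled reads below. Muscle genes dominated: the 12 fast-fibre genes summed to 3925920 to 5487170 scaled reads in each library. The ZT18 HF library stood apart by its liver transcripts. Of 28 hepatocyte genes, 24 had their highest value in ZT18 HF, where the list summed to 3152 scaled reads against 571 to 1235 in the other 5 libraries; Alb had 885 there and 2 reads at ZT6 HF. These transcripts made up 0.0110% of the reads of ZT18 HF. The ZT6 HF.NOB library also stood apart, by transcript length: across 10006 protein-coding genes whose mean reached 100, the rank correlation of the ZT18 to ZT6 fold with length was 0.74 on HF.NOB but 0.016 on RD and -0.00078 on HF, so the HF comparison does not carry that trend and the HF.NOB folds below do.

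On log2(scaled reads + 1), 2477 genes (12.2%) were higher by 1.5-fold or more at ZT18 HF and 2081 (10.2%) lower by as much, and the median log2 fold was 0.00. Most of these had few reads. Among genes with a mean from 1 to 10, 31.5% were past 1.5-fold upwards and 26.7% downwards; among those with a mean of at least 500, 68 of 5894 (1.15%) and 32 (0.543%). The 95% counting interval of the fold, an exact binomial interval of the 2 read counts, lay above 0 for 665 of the 2477 and below 0 for 372 of the 2081. At a mean of at least 50, where counting error is small, 258 of 11766 genes (2.19%) were higher and 166 (1.41%) lower, and these 424 are the ones read closely here. With 1 library a side there is no test of the HF difference, and the intervals cover counting error only, not the spread between animals. Below, a pair of values is ZT6 and then ZT18 in scaled reads, and a range after a log2 fold is its counting interval. Counts past 1.5-fold in a gene list stand beside the 12.2% and 10.2% of all genes, or the 2.19% and 1.41% at a mean of at least 50.

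**Figure D1:**
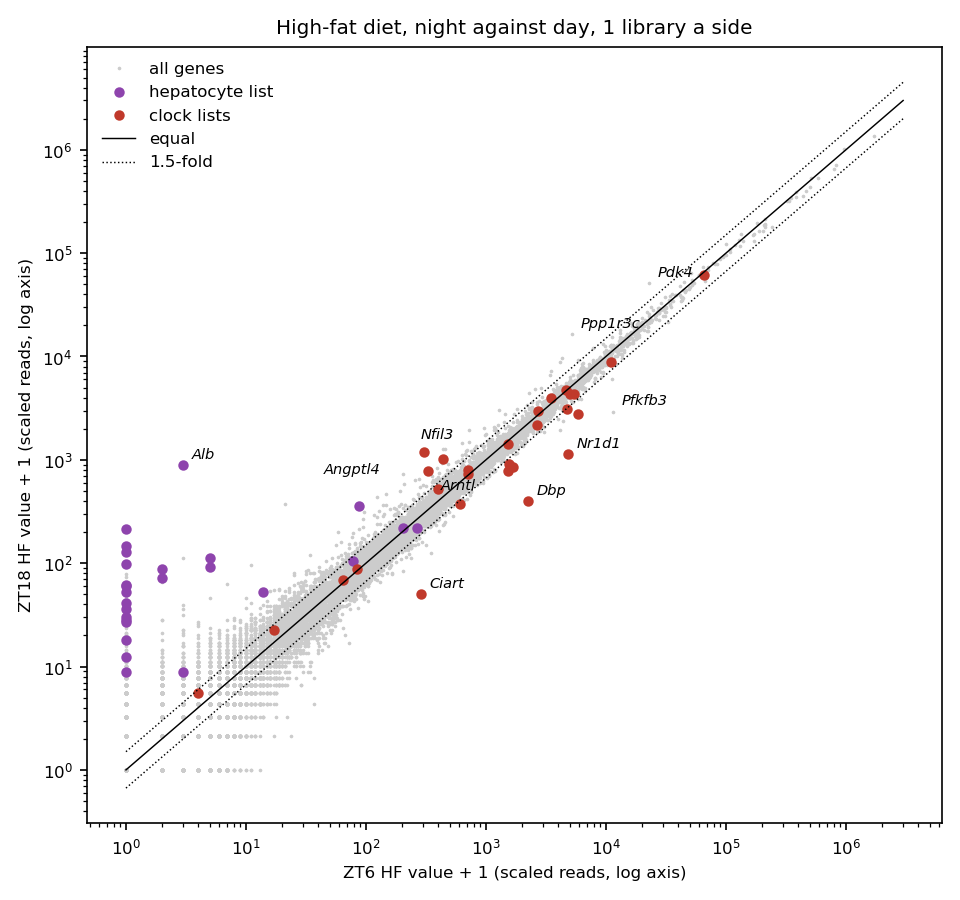
Scaled reads plus 1 at ZT6 (x axis, log) and ZT18 (y axis, log) on the high-fat diet, each point 1 of 20311 genes, with clock genes in red and hepatocyte genes in purple; the solid line marks equal values and the dotted lines 1.5-fold. Most abundant genes lie between the dotted lines, Dbp, Nr1d1 and Pfkfb3 lie below them, and hepatocyte genes rise from the left edge up to Alb at 885.

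The clock genes separated into a daytime and a night-time group. Of 28 clock and clock-output genes, 9 were lower at ZT18 by 1.5-fold or more, 3 higher by as much and 16 within 1.5-fold. The 3 lowest log2 folds of the 11110 named genes with a mean of at least 50 were all in this set. They were Ciart (ENSMUSG00000038550.9, chr3:95878503-95882251 on GRCm38), which codes for a repressor of CLOCK and BMAL1, Dbp (ENSMUSG00000059824.9, chr7:45705088-45710203), a PAR bZIP activator of output genes, and Nr1d1 (ENSMUSG00000020889.11, chr11:98767932-98775333).

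Promoters of some clock genes are shown because the loop acts through short elements in them. Each window shown holds a match, and windows without a match, such as those of Dbp and Nr1d1, are not shown. The 300-base windows of RefSeq, on GRCm38, run from 250 bases before a transcript start to 50 after it, written 5′ to 3′ on the gene's strand. Capitals mark any match, on either strand, to the E-box CACGTG, the D-box TTATGTAA to which DBP, TEF and HLF bind, the ROR element cores TAGGTCA and TGGGTCA, or the heat shock factor motif GAANNTTC. The first 3 genes were lower and the last 2 higher at ZT18 HF.
Ciart, chr3:95882179-95882478, minus strand: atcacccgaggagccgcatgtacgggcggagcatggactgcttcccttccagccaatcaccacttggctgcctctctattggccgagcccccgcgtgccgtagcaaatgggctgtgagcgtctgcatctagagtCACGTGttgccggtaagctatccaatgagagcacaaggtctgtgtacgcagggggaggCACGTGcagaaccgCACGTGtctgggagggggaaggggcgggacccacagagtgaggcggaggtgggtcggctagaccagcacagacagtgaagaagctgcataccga
Bhlhe41, chr6:145865371-145865670, minus strand: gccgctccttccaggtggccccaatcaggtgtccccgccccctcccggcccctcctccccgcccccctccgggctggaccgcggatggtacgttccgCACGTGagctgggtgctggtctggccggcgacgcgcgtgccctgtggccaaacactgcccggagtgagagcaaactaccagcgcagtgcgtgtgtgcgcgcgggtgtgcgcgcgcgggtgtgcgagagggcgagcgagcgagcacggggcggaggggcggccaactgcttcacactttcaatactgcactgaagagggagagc
Per3, chr4:151044616-151044915, minus strand: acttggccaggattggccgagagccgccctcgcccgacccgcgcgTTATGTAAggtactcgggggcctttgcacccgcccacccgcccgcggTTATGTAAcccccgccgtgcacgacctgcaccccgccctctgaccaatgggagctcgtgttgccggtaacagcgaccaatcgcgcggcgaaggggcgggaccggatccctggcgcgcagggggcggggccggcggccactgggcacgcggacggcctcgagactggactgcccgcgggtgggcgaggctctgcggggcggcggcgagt
Nfil3, chr13:52980990-52981289, minus strand: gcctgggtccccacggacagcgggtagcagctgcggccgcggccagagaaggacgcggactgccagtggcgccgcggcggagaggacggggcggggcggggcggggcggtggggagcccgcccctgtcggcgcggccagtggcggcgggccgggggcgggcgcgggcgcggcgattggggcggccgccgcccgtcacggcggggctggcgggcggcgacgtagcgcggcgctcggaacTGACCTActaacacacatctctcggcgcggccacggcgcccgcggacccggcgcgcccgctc
Arntl, chr7:113207261-113207560, plus strand: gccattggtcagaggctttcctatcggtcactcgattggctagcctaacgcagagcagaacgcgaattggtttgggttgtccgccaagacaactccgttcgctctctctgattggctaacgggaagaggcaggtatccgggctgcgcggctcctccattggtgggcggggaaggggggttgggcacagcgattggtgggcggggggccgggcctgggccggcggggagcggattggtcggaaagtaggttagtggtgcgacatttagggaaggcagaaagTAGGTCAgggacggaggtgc

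Ciart held 3 E-boxes, which begin 116, 58 and 44 bases before the start, and Bhlhe41 held 1, at 153 bases before it. Per3 held 2 D-boxes, 205 and 158 bases before its start. Nfil3 and Arntl each held 1 ROR element core, read in Nfil3 as its reverse complement TGACCTA 12 bases before the start and in Arntl at base 31 of the transcript. The window of the other annotated start of Arntl held none. No marked elements overlap. Of the clock genes lower at night, 8 had a window and 3 of them (37.5%) held an E-box, against 2 of 12 (16.7%) of those within 1.5-fold and 12% of all genes with a mean of at least 50. The windows of Dbp and Nr1d1 held none of these letters. Of the 3 higher clock genes, the 2 with a window, Nfil3 and Arntl, each held a ROR element core in at least 1 window. None of the 8 lower and none of the 12 within 1.5-fold did, beside 6.21% of genes with a mean of at least 50. Over the wider groups, the E-box was in 11.4% of 185 genes higher and 16.2% of 117 genes lower at a mean of at least 50. The heat shock factor motif was in 11.9% and 5.13% of them, against 6.85% of all such genes. A match is a string of letters, not a measured binding site.

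Among the repressors, 5 of 8 were at least 1.5-fold lower at night. Ciart had 285 and 49.6 on HF, 356 and 36.2 on RD and 201 and 57.4 on HF.NOB. All 3 night values were below all 3 day values. The share of all genes with such a separation was not counted, here or for the genes below. Its log2 fold on HF was -2.5, with a counting interval of -3.02 to -2.06. Bhlhe40 and Bhlhe41 code for DEC1 and DEC2, which compete for E-boxes. Bhlhe40 went from 5886 to 2796 on HF (log2 fold -1.07, -1.14 to -1.01) and Bhlhe41 from 1687 to 847 (-0.99, -1.12 to -0.87). For both, the groups of day and night libraries did not overlap.

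The Period genes, repressors that act with the cryptochromes, did not share 1 direction. Per3 had 1534 and 774 (log2 fold -0.99, -1.12 to -0.86), and on HF.NOB, where the day library was the one with the length trend, 720.1 and 802. Per1 had 1560.0 and 912 (-0.77, -0.90 to -0.65), with 2242 and 1889.9 on RD, so the RD night value was above both high-fat day values. Per2 was level on HF, at 705 and 721 (0.03, -0.12 to 0.19). Of the cryptochromes, Cry1 was on the night side with 397 and 525 (0.40, 0.21 to 0.60) and Cry2 had 2646 and 2173 (-0.28).

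The receptors that act on ROR elements were lower at night or level. Nr1d1 had 4831 and 1138 on HF, 6267 and 1467 on RD and 3818 and 1959 on HF.NOB, with no overlap between day and night. The log2 fold on HF was -2.08 (-2.18 to -1.99), beside -2.09 on RD and -0.96 on HF.NOB. Nr1d2 had 4779.7 and 3088 on HF (-0.63, -0.70 to -0.56). Rora, which codes for an activating counterpart, had a log2 fold of -0.20. Rorb was at 3 to 5 scaled reads on HF and could not be read.

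Dbp carried the deepest daily difference among the output activators. It had 2234 and 398 on HF, 1983 and 326 on RD and 1878 and 304 on HF.NOB, so the night values of the 3 diets lay within 304 to 398. Its log2 folds were -2.49 (-2.66 to -2.33), -2.6 and -2.62. The related Hlf had 609.8 and 375 (-0.70, -0.90 to -0.51) and Tef 10939 and 8756 (-0.32), within 1.5-fold. Nfil3 codes for E4BP4, the repressor that competes with DBP for D-boxes, and it was the mirror image. It had 306 and 1197 on HF, 332 and 1535 on RD and 677 and 1283 on HF.NOB, all 3 night values above all 3 day values, and its log2 fold on HF was 1.96 (1.78 to 2.15).

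Of the activators, Arntl had 330.4 and 775 on HF, 637 and 1021 on RD and 509 and 978 on HF.NOB. The ZT6 HF value was the lowest of all 6, and the log2 fold was 1.23 on HF (1.04 to 1.42) against 0.68 on RD and 0.94 on HF.NOB. Clock, its partner, was level on HF (1512 and 1424, log2 fold -0.09), and Arntl2 (0.10) and the low Npas2 (0.40, -0.61 to 1.48) had intervals that held 0. Of 7 outputs, Myod1, the myogenic factor under clock control, was the 1 past 1.5-fold: 438 and 1016 on HF, 514 and 1347 on RD, log2 fold 1.21 (1.05 to 1.38). The others were Usp2 (-0.34), Tcap (-0.09), Nampt (0.01), Wee1 (0.07), Por (0.16) and Alas1 (0.18), all log2 folds on HF. Among 6 genes for clock kinases and ubiquitin ligases, all had lower values at night on HF, but the intervals of Csnk1e and Csnk1d held 0. So did that of the 1 past 1.5-fold, Fbxl21, with 5.99 and 3.38 (-3.45 to 1.4), named after its values were seen.

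**Figure D2:**
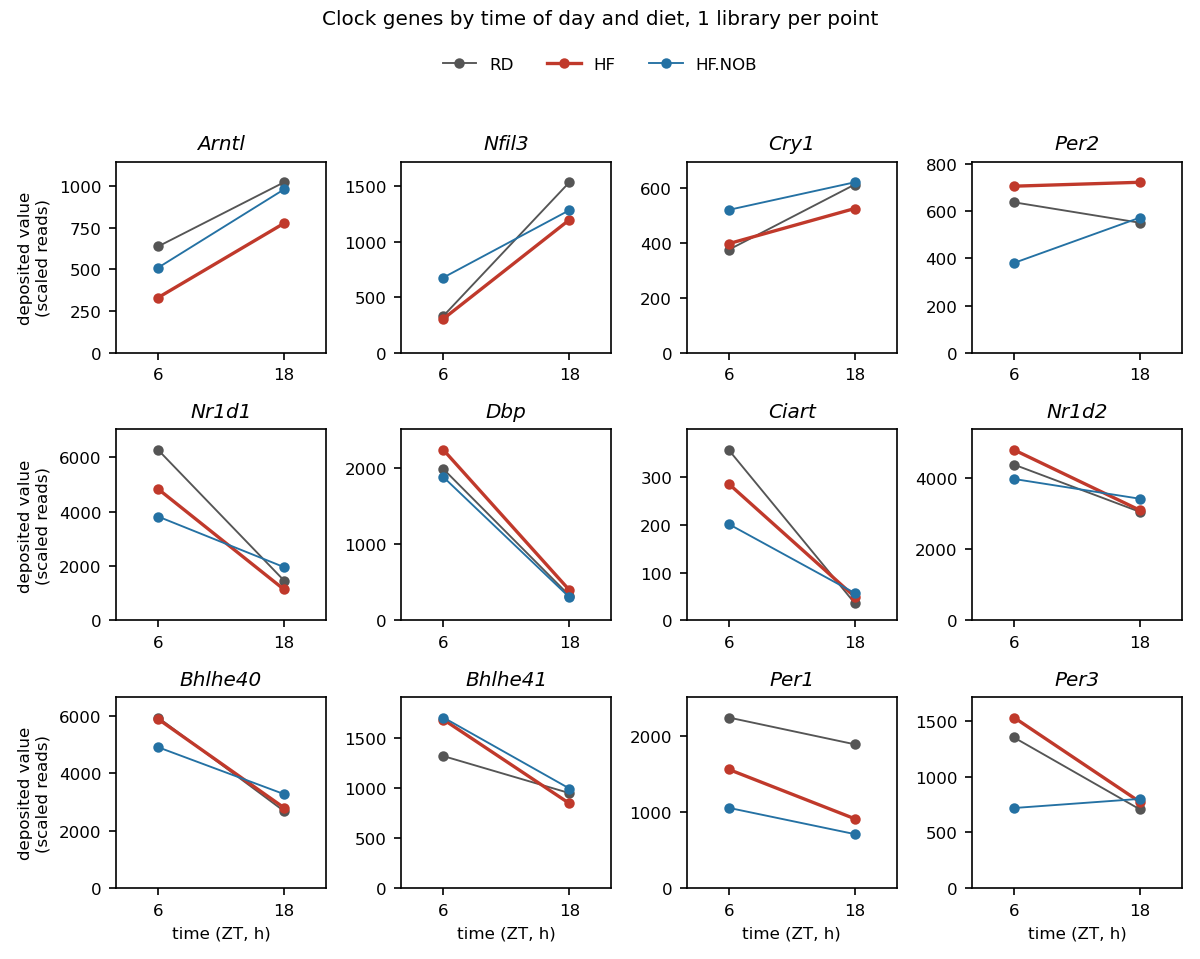
Scaled reads (y axis, linear from 0) of 12 clock genes at ZT6 and ZT18 (x axis, hours), 1 library per point, joined within RD (grey), HF (red) and HF.NOB (blue). Arntl, Nfil3 and Cry1 slope upwards, Nr1d1, Dbp, Ciart, Nr1d2, Bhlhe40, Bhlhe41 and Per1 slope downwards in all 3 diets, and Per2 on HF stays at 705 to 721.

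The day to night difference can be tested only by letting diets stand as replicates of a time of day. In edgeR's quasi-likelihood test on the recovered reads with diet as a term, 0 of 14988 genes (0%) were higher and 1 (0.00667%) lower at a Benjamini-Hochberg adjusted p under 0.05. The 1 gene was Dbp, with a log2 fold of -2.55 ± 0.14 (SE, n = 3 libraries a side) and an adjusted p of 0.016. At an unadjusted p under 0.05, 341 were higher and 187 lower, and DESeq2 called 17 and 7. Without the HF.NOB pair, edgeR called 206 of 14675 genes higher (1.4%) and 119 lower (0.811%), from 2 libraries a side with 1 residual degree of freedom per gene. That fit, over RD and HF, called 10 of the 28 clock genes lower, the 9 past 1.5-fold on HF and Usp2, and 4 higher, Arntl, Nfil3, Cry1 and Myod1. The fit holds the same HF pair that gave the HF folds, so its calls are not independent of them. Its edgeR adjusted p was 5.7e-10 for Dbp, 6.2e-10 for Nr1d1, 1.1e-06 for Ciart, 9.3e-09 for Nfil3, 2.3e-04 for Arntl and 0.0079 for Cry1. These p-values treat RD and HF as replicates and measure what both diets share, not what is particular to HF. In the fit over all 3 diets the edgeR adjusted p was 0.45 for Ciart, 0.68 for Nr1d1, Nfil3 and Arntl and 0.84 for Cry1. Genes given below with a p over RD and HF were likewise not called there.

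Genes that set the fuel of muscle were among the largest night-time differences. Ppp1r3c, a subunit that targets a phosphatase to glycogen and favours glycogen synthesis, had 5228 and 16353 on HF, 6715 and 24387 on RD and 10809 and 15446 on HF.NOB. Night values were above day values throughout, and the log2 fold on HF was 1.65 (1.6 to 1.69). Its edgeR adjusted p was 4.4e-08 over RD and HF and 0.84 over the 3 diets. Pfkfb3 codes for a bifunctional enzyme whose product speeds glycolysis, and it went the other way, from 11467 to 2933 on HF (-1.97, -2.03 to -1.91) and from 20198 to 2883 on RD. On HF.NOB it had 6059.8 and 5556, which is level. Tbc1d1, a Rab GTPase-activating protein that controls GLUT4 traffic, had 2860.4 and 4914 (0.78, 0.71 to 0.85) and was past 1.5-fold in all 3 diets, whereas its relative Tbc1d4 had -0.31. In the list of 13 insulin and glucose genes, 2 were past 1.5-fold higher and 1 lower, and the median log2 fold was 0.06. Of all genes 12.2% were higher and 10.2% lower by as much, and 2.19% and 1.41% at a mean of at least 50. The 12 glycolytic enzymes kept to -0.26 to 0.19, with 11 lower at night and a median of -0.08, the same median as on RD.

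Pdk4, Ucp3 and Angptl4, which fatty acids induce, were higher at night on HF and not on RD. Pdk4, the kinase that shuts pyruvate dehydrogenase and spares glucose, had 22975 and 51472 on HF, 21693 and 39619 on HF.NOB and 11752 and 10258 on RD. Both high-fat night values were above every other, and the RD values were the 2 lowest. The log2 fold was 1.16 on HF (1.14 to 1.19), 0.87 on HF.NOB and -0.20 on RD. Ucp3, a mitochondrial carrier, had 3398 and 6642 on HF, 3237 and 5301 on HF.NOB and 2263 and 1557 on RD, with log2 folds of 0.97 (0.91 to 1.03), 0.71 and -0.54. Angptl4, a secreted inhibitor of lipoprotein lipase, had 202 and 721 on HF, 369 and 340.4 on HF.NOB and 68.1 and 45.3 on RD. Its log2 fold was 1.83 on HF (1.61 to 2.07), -0.12 on HF.NOB and -0.58 on RD, so the ZT18 HF library alone was high. With 1 library per condition the difference between diets was not tested. Angptl4 and Pdk4 are also made in liver, whose transcripts were in ZT18 HF; the part of these in the values was not tested.

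In the whole list of 15 genes of fatty acid handling, 12 were higher at night on HF, 4 of them past 1.5-fold and none past it downwards, with a median of 0.21 against -0.09 on RD. The 18 enzymes of mitochondrial β-oxidation had small differences in 1 direction: 17 were higher at night, from -0.02 to 0.22, with a median of 0.17 beside 0.00 for all genes. The largest were Acads (0.22, 0.15 to 0.30), Slc25a20, the carnitine-acylcarnitine carrier (0.22), and Acadvl (0.21). On RD, 3 of the 18 were higher and the median was -0.09. With ZT18 HF.NOB set against ZT6 HF in place of ZT18 HF, the median was -0.04. That swap changes the drug as well as the library, and the source of the shift was not tested. None of the 18 was called over RD and HF.

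Of the regulators of mitochondrial biogenesis, 2 of 15 were past 1.5-fold higher, beside 12.2% of all genes and 2.19% at a mean of at least 50. Ppargc1a, the coactivator PGC-1α, had 1251 and 2181 on HF, 1194 and 1632 on RD and 821 and 1558 on HF.NOB, with a log2 fold on HF of 0.80 (0.70 to 0.91; edgeR adjusted p over RD and HF 8.3e-04). Ppara, the receptor for fatty acids, had 361 and 633 on HF (0.81, 0.62 to 1.0; 0.0025 likewise) and 386 and 539 on RD. The remaining 13 genes of that list were within 1.5-fold. The 75 nuclear genes of the respiratory chain lay between -0.16 and 0.16 on HF, 49 higher and 26 lower, with a median of 0.03; on RD, 1 of 75 was higher and the median was -0.17. The 13 mtDNA-encoded genes had a median of 0.00 on HF, 8 of them higher, and the sign of that median turned under TMM scaling. Fat synthesis genes were within 1.5-fold (16 of 16), with Dgat2 at 0.47, Fasn at 0.37, Srebf1 at -0.37 and Me1 at -0.39; so were the 18 of cholesterol synthesis. Pnpla3, a lipid droplet protein whose liver transcript follows insulin and carbohydrate, had 94.8 and 313 on HF (1.71, 1.38 to 2.08) and 68.1 and 690.3 on RD (3.32).

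**Figure D3:**
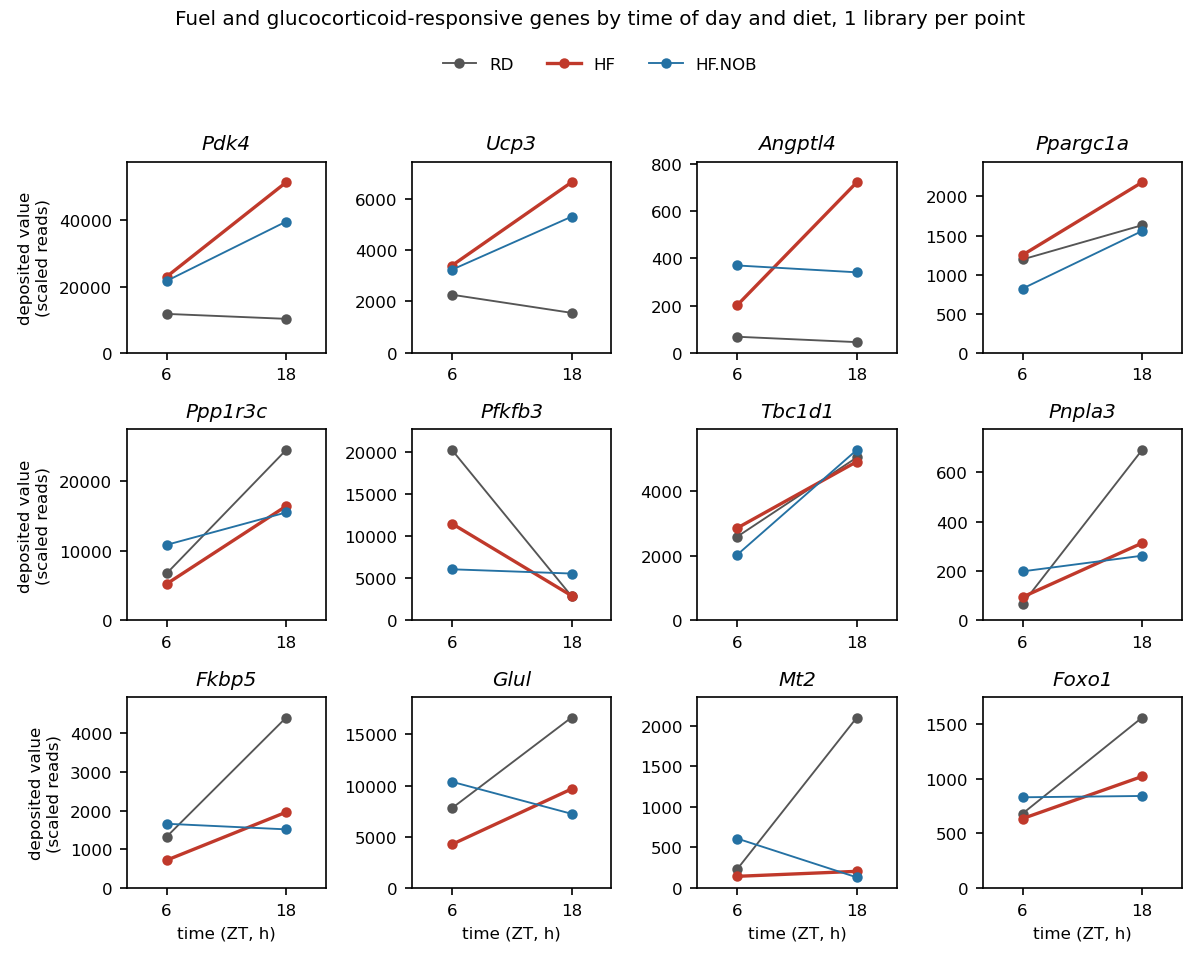
Scaled reads (y axis, linear from 0) of 12 fuel and glucocorticoid-responsive genes at ZT6 and ZT18 (x axis, hours), 1 library per point, joined within RD (grey), HF (red) and HF.NOB (blue). Pdk4 and Ucp3 climb on both high-fat diets and not on RD, Angptl4 climbs on HF alone, and Mt2 reaches 2099 at night on RD but 206 on HF.

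Genes that glucocorticoids, hormones that peak in mice around dusk, induce were mostly higher at night on HF and RD and not on HF.NOB. Of 15, 12 were higher on HF and 6 at least 1.5-fold, with a median of 0.45; on RD 13 were higher, 8 at least 1.5-fold, with a median of 0.66. On HF.NOB, with the length trend, 6 were higher and 9 lower (median -0.08), with Glul at 10377 and 7252 and Zbtb16 at 665 and 2704. The RD background for 1.5-fold higher was 11.3% and for lower 12.2%. Fkbp5, a co-chaperone of the receptor, had 719.6 and 1959 on HF, 1324 and 4399.9 on RD and 1659 and 1515 on HF.NOB. The log2 fold was 1.44 on HF (1.32 to 1.57). Zbtb16, a zinc-finger factor, had 1284 and 3040.3 (1.24, 1.15 to 1.34), Glul, glutamine synthetase, 4266 and 9671 (1.18, 1.13 to 1.23), and Pik3r1, the regulatory subunit of PI3K, 1176 and 2071 (0.82, 0.71 to 0.92). Over RD and HF, edgeR called 10 of the 15 higher and none lower, with an adjusted p of 5.3e-08 for Fkbp5, 1.2e-06 for Glul, 1.3e-04 for Zbtb16 and 2.0e-04 for Pik3r1. Over the 3 diets the edgeR adjusted p of each of these was 0.84.

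The metallothioneins, metal-binding proteins that glucocorticoids and zinc induce, had low night values on HF. Mt1 had 224 and 349 on HF and 382 and 1985 on RD, and Mt2 145 and 206 and 234 and 2099. The log2 folds were 0.64 and 0.51 on HF against 2.38 and 3.16 on RD. On HF.NOB, the day values (887 and 609) were the higher. Among atrophy and autophagy genes, 3 of 19 were past 1.5-fold higher and 1 lower. Of all genes 12.2% and 10.2% were, and 2.19% and 1.41% at a mean of at least 50. Foxo1 had 635 and 1019.8 (0.68, 0.54 to 0.83) and 681 and 1558 on RD. Cdkn1a, which codes for p21, had 1197 and 2049.8 (0.78, 0.67 to 0.88), and Gadd45a, a stress gene tied to denervation, 967 and 2037 (1.07, 0.96 to 1.19) against 1029 and 1042 on RD. On HF.NOB both were lower at night, with log2 folds of -0.84 for Cdkn1a and -1.1 for Gadd45a. The lower gene was Mstn, myostatin, a brake on muscle growth, with 1800.5 and 1152 (-0.64, -0.76 to -0.53); ZT18 HF.NOB held 1905, above ZT6 HF.

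Immediate early genes, which answer a stimulus within minutes to hours, were higher at night on HF in 17 of 19 cases, 6 of them past 1.5-fold, with a median of 0.39; on RD 9 were higher and the median was -0.00. Nr4a3, an orphan receptor that exercise induces, had 124 and 433 on HF, 117 and 252 on RD and 319 and 373 on HF.NOB (1.8 on HF, 1.51 to 2.11). Atf3, a stress factor, had 146 and 469.9 on HF (1.68, 1.41 to 1.97), where the day value was the lowest of the 6, and 296 and 255 on RD. Arc (1.2) and Fosb (0.85, -0.13 to 1.96) were low. Of the heat shock genes 15 of 18 were higher, with a median of 0.24 beside -0.06 on RD. The 2 past 1.5-fold, beside 12.2% of all genes and 2.19% at a mean of at least 50, were Hspa1a and Hspa1b. Hspa1a had 115 and 291 (1.33, 1.02 to 1.67) and Hspa1b 85.8 and 213 (1.3, 0.94 to 1.7). They are a near-identical pair that share reads, so the split between them is uncertain. For both, the ZT6 HF value was the lowest of the 6. Of the endoplasmic reticulum stress genes 10 of 11 were lower, none past 1.5-fold (median -0.07), and cytosolic ribosomal genes had 70 of 76 lower, none past it (median -0.09).

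Fibre genes were lower at night in both classes. Of 10 slow-fibre genes 9 were lower on HF, with a median of -0.40, and of 12 fast-fibre genes 11, with a median of -0.26. Myh7, the slow myosin heavy chain, had 32810.2 and 21511 on HF (-0.61, -0.63 to -0.58), 25607 and 23731 on RD and 21509 and 37585 on HF.NOB. Tnnt1 had -0.54, Tnni1 -0.45 and Tpm3 -0.45; in the fast class Actn3 had -0.44, Pvalb -0.39, Casq1 -0.32 and Myh4 -0.31. With ZT18 HF.NOB in place of ZT18 HF the slow median was 0.19 and Myh7 0.20. The sign against ZT6 HF thus changed with the night library. Within their own pairs, 10 of 10 slow-fibre genes were lower on RD (median -0.19) and 8 of 10 on HF.NOB (median -0.28). The HF.NOB pair holds the length trend. Over RD and HF, edgeR called 4 of the slow-fibre genes lower and none of the fast-fibre ones. Mixed calf muscle holds slow and fast muscles, and in bulk tissue fewer cells of a type cannot be told apart from less RNA per cell. Denervation genes were higher in 13 of 14, 3 past 1.5-fold, among them Sln, sarcolipin, which uncouples the calcium pump, with 635 and 1441 (1.18, 1.04 to 1.32), and Myog, a myogenic factor, with 177 and 299 (0.75, 0.48 to 1.04). On RD 8 of 14 were higher, with log2 folds of 0.66 for Sln and 1.18 for Myog. On HF.NOB 9 of 14 were lower, with Sln at 3858 and 754 (-2.35) and Myog at 333 and 206 (-0.69).

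Of 15 genes of the amino acid response 2 were past 1.5-fold higher and 2 lower, shares near the 12.2% and 10.2% of all genes. The higher, Slc7a11 (4.99 and 12.4) and Fgf21 (3.99 and 10.1), named after their values were seen, had intervals that held 0. The lower were Trib3, a pseudokinase, with 56.9 and 33.8 (-0.73, -1.44 to -0.09), and Chac1, which degrades glutathione, with 662 and 411 (-0.68, -0.87 to -0.50). Chac1 had 1461 and 659 on RD and was called lower over RD and HF (edgeR adjusted p 1.6e-04). Odc1, the rate-limiting enzyme of polyamine synthesis, had 3408 and 4150.3 (0.28, 0.22 to 0.35; 0.025 likewise), whereas Amd1, which makes the aminopropyl donor of that path, had 14248 and 11129 (-0.36). Of 13 fibroblast and matrix genes, 7 were higher and 6 lower on HF (median 0.05), with Mfap5 at 0.33 (0.11 to 0.55). Among the lower were 2 fibrillar collagens. Col3a1 had 3592 and 2761 on HF (-0.38, -0.45 to -0.31) and 1944 and 1346 on RD. Col1a1 had 2071 and 1653 on HF (-0.32, -0.42 to -0.23). The edgeR adjusted p over RD and HF was 0.0046 for Col3a1 and 0.025 for Col1a1. Both were within 1.5-fold. Tendon genes were lower in 6 of 7 (median -0.32), with Tnmd, tenomodulin, at 132 and 82.3 (-0.67, -1.11 to -0.26). Flt1, a VEGF receptor of endothelium, had 1586 and 2059.9 on HF (0.38, 0.28 to 0.48), 1647 and 2123 on RD and 1122 and 2010.2 on HF.NOB, with all night values above all day values (edgeR adjusted p over RD and HF 0.0099), and its ligand gene Vegfa had 6417 and 7966 on HF (0.31) and 5326 and 5165 on RD.

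For immune and other cell types, of 14 interferon genes 11 were higher at night on HF (median 0.37) and 5 on RD (median -0.22), with Ifit1 at 161 and 251 on HF (0.64, 0.35 to 0.95) and 135 and 71.3 on RD. Oas1a was the other past 1.5-fold, at 32.9 and 55.2, with an interval of 0.08 to 1.43. None of the list was called over RD and HF. The 7 MHC class II genes were all lower (median -0.19), 1 past 1.5-fold, the transactivator Ciita at 97.8 and 62.0 (-0.65, -1.16 to -0.17). Adipocyte genes were higher in 11 of 13 (median 0.28), although their summed level was 92294 at ZT6 HF and 88602 at ZT18 HF. Lep, which codes for leptin, had 517 and 801 on HF (0.63, 0.47 to 0.80), 577 and 592 on HF.NOB and 34.7 and 101 on RD, so diet separated its values more than time did. The 6 red blood cell genes were all higher (median 0.40; sums of 1581 and 2105 on HF, against 4395 to 14591 in the RD and ZT6 HF.NOB libraries). Endothelial, fibroblast and macrophage lists had medians of 0.08, 0.05 and 0.17, and 2 leukocyte genes were past 1.5-fold, Cd3e and Cd79a, lymphocyte receptor chains named after their values were seen.

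The 28 hepatocyte genes are given by value, without a count or median over those that passed the filter, since many reached a mean of 1 through ZT18 HF alone. At ZT6 HF, 17 of the 28 had 0 reads. Alb, serum albumin, had 885 scaled reads at ZT18 HF and 2 reads at ZT6 HF, a ratio of 443 with a counting interval of 122 to 3666, and at most 9.34 in any other library. Apob, the apolipoprotein of very-low-density lipoprotein, Cyp3a11 and Gc, the vitamin D-binding protein, had no read at ZT6 HF. Against a floor of 3 reads there, the ratios were 70.8 for Apob, 48.6 for Cyp3a11 and 42.5 for Gc. The lower ends of their counting intervals were 57.0, 38.9 and 34.0. Pck1 (267 and 219 on HF), Trf and Ass1, which muscle or fat also express, were within 1.5-fold, and G6pc had no read in any library. In all, 111 genes were more than 4 times higher in ZT18 HF than in any other library. Without them, 2366 genes were past 1.5-fold upwards.

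**Figure D4:**
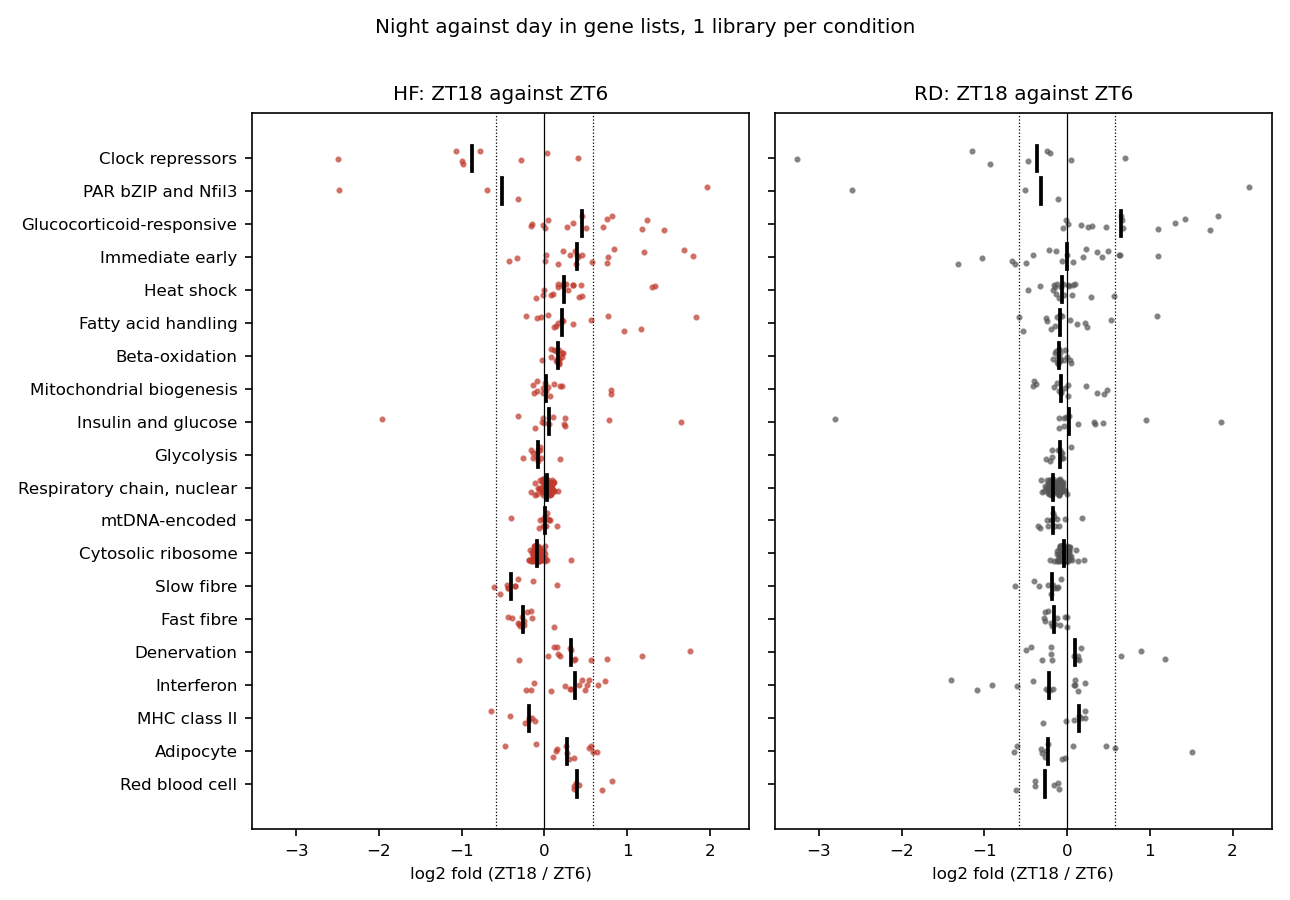
Log2 fold of ZT18 against ZT6 (x axis) of each gene in 20 lists (y axis), on HF (left, red) and RD (right, grey), with a black bar at each list's median and dotted lines at 1.5-fold. Glucocorticoid-responsive genes lie to the right on both diets, whereas β-oxidation has a median of 0.17 on HF and -0.09 on RD; the hepatocyte list is not drawn.

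Further genes stood at the ends of the ranking of named genes with a mean of at least 50. On the high side, after Alb, came Cyp2e1, a cytochrome P450 abundant in liver and in fat, with 86.8 and 355 on HF and 315 and 183 on RD, and Rbp4, the retinol carrier of plasma, with 32.9 and 119 on HF and 44.0 and 27.2 on RD; liver makes both, and the part of the liver transcripts of ZT18 HF in these values was not tested. Odf3l2 had 434 and 1286 on HF, 639 and 1808 on RD and 671 and 1861 on HF.NOB, with log2 folds of 1.56 (1.41 to 1.73), 1.5 and 1.47. Otud1, a deubiquitinase, had 451 and 1279 on HF (1.5, 1.34 to 1.66) and 639 and 1664 on HF.NOB, against 518 and 570.4 on RD. Lrrc52, an auxiliary subunit of potassium channels, had 93.8 and 265 (1.49, 1.15 to 1.86).

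On the low side, after the clock genes and Pfkfb3, came Vash2 with 62.9 and 22.5 (-1.44, -2.28 to -0.73), Stc2, a secreted stanniocalcin, with 104 and 41.7 (-1.3, -1.9 to -0.76), and Fam83d with 202 and 83.4 (-1.26, -1.68 to -0.88). Stc2 on RD had 123 and 152, the other direction. Frem2 (-1.21), Cited4, a transcriptional coregulator that exercise induces in heart (-1.09), Flrt1 (-1.09) and the peptide transporter Slc15a2 (-1.09) followed. Nmrk2, the muscle nicotinamide riboside kinase of NAD synthesis, had 4108 and 1940.5 on HF and 4159.5 and 1720.1 on RD (-1.08 on HF, -1.16 to -1.0; edgeR adjusted p over RD and HF 5.6e-07).

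Set beside RD, which has its own pair of libraries, part of the HF differences recurred. Of the 258 genes higher at night on HF at a mean of at least 50, 86 (33.3%) were also at least 1.5-fold higher on RD, where 2.25% of all such genes were, and these 86 were 32.5% of the 265 on RD. Of the 166 lower, 37 (22.3%) were lower on RD, where 1.67% were, and they were 18.9% of the 196. The opposite way on RD were 11 of the 258 and 1 of the 166. Without the level filter, the shares the same way were 26.5% and 30.2%, and the opposite way 27.6% and 23.2%, so over all genes the shares of both kinds lay near each other. On HF.NOB, 74 of the 258 and 35 of the 166 differed the same way and 44 and 29 the opposite way, where 16.6% of all such genes were past 1.5-fold upwards and 16.6% downwards, in a comparison that holds the length trend.

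**Figure D5:**
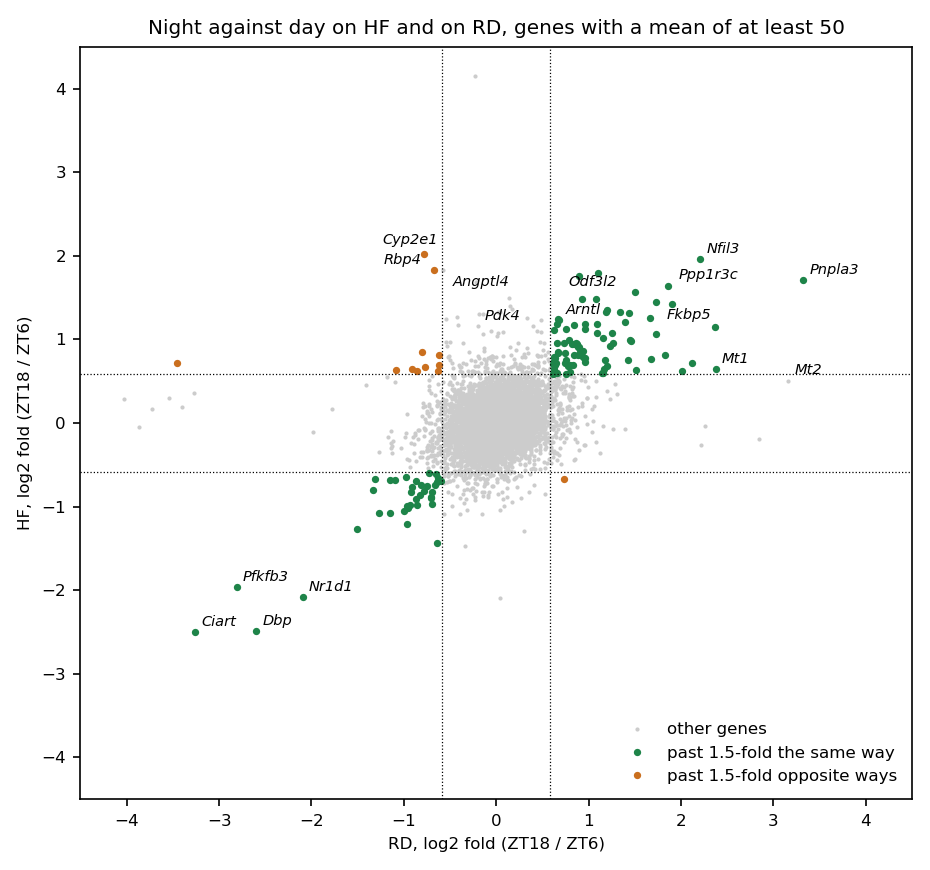
Log2 fold of ZT18 against ZT6 on RD (x axis) and on HF (y axis) for 11765 genes with a mean of at least 50, Alb lying outside the axes; dotted lines mark 1.5-fold. Green points are past 1.5-fold the same way on both diets (86 higher, 37 lower) and orange points the opposite way (12); Dbp, Ciart, Nr1d1 and Pfkfb3 form the lower left group.

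In all 3 diets, 30 of the 11110 ranked genes were past 1.5-fold upwards at night and 6 downwards. The HF.NOB pair adds little to this, as 16.6% of genes with a mean of at least 50 were past it each way there, with the length trend. The 6 lower were Dbp, Ciart, Nr1d1, the chemokine Cxcl10 (96.8 and 47.3 on HF), the Wnt ligand Wnt5b (103 and 58.6) and Coq10b, a coenzyme Q-binding protein (495 and 311). Among the 30, Slc38a2, the amino acid transporter SNAT2, had 3456 and 7307 on HF, 3325 and 7071 on RD and 3770.0 and 8863 on HF.NOB. Its log2 folds were 1.08 (1.02 to 1.14), 1.09 and 1.23. Slc25a30, a mitochondrial carrier, had 137 and 287 on HF (1.07, 0.77 to 1.38), Plekhh1 207 and 580.3 (1.49, 1.25 to 1.73), Ypel2 478 and 915 (0.94, 0.77 to 1.1), the nuclear matrix protein gene Banp 122 and 277 (1.18, 0.87 to 1.51), Prima1, which anchors acetylcholinesterase, 27.9 and 64.2 (1.17) and Rnase13 28.9 and 58.6 (0.99). For each of these 7 the 3 night values were above the 3 day values, for Plekhh1 by less than 1 scaled read. They were picked for being past 1.5-fold upwards in every diet, which favours such a separation, so it is no further support.

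The fit that leaves out both HF libraries gives genes called without them. Over RD and HF.NOB, edgeR called 61 of 14563 genes higher and 26 lower, in a fit that includes the ZT6 HF.NOB library with the length trend. In some of the 61 the HF.NOB pair alone differed, as in Foxn3 (-0.15 on RD, 3.32 on HF.NOB) and Hipk2 (-0.11 and 3.86), named after their values were seen. On HF, 45 of the 61 (73.8%) were higher, 22 (36.1%) past 1.5-fold upwards and 0 downwards. Of all genes 12.2% and 10.2% were past it, and 2.19% and 1.41% at a mean of at least 50. The 22 include Nfil3, Odf3l2, Plekhh1, Zbtb16, Slc25a30 and Tbc1d1. Of the 26 called lower, only 8 (30.8%) were lower on HF, where their median log2 fold was 0.22. At least 1.5-fold lower on HF were 6 (23.1%), among them Dbp, Ciart, Nr1d1 and Pfkfb3, and 5 were at least 1.5-fold higher on HF. The globin genes among the 26 were highest in ZT6 HF.NOB, with Hba-a1 at 3269 and 395 on HF.NOB and 331 and 444 on HF. Others of the 26 were high in the ZT6 libraries of both RD and HF.NOB but not of HF. Lars2 had 61349 and 5792 on RD, 39778 and 6605 on HF.NOB and 6225 and 7108 on HF. Gm26917 had 3648 and 377 on RD, 2650 and 563 on HF.NOB and 467 and 600 on HF. Both were named after their values were seen, so the ZT6 RD library also stood apart in such genes.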

How the data were processed

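Total RNA of calf muscle (Trizol) was sequenced with Illumina libraries. The submitters' processing notes name TopHat2 2.0.12, Cufflinks 2.2.1 and mm10; no source used here gives the counting tool. The deposited signal values were read counts that the authors had multiplied by 1 factor per library. All values divided by that factor came out whole within 0.001, so whole reads were recovered (23248663 to 31837501 per library). The plan had left this unit open.

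Folds were log2((ZT18 + 1)/(ZT6 + 1)) of the scaled reads for genes with a mean of at least 1. Tests used edgeR 4.0.16 (filterByExpr, TMM, diet and time as terms) and DESeq2 1.42.0 in R 4.3.3, and intervals SciPy 1.17.1, after a check on simulated data. Gene models were GENCODE on GRCm38, and 26124 of 26294 IDs had a symbol. Promoters from RefSeq (GRCm38.p6) matched 13217 of 20311 genes by symbol.

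Genes named were all clock members, up to 4 per other list by size of fold (mean of at least 20), the 12 highest and 12 lowest folds (mean of at least 50, the same again without genes high in 1 library alone), and the 10 most alike in each direction over the diets. Members and lists were chosen with earlier results of these data known. Some genes that the rule names are not reported here.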

Additional observations from a re-analysis of the deposited data

Results flagged for a closer look

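In 5 named genes the HF pair and the RD pair moved past 1.5-fold in opposite directions, and with 1 library per condition the difference was not tested. Apln, which codes for the secreted peptide apelin, had 79.8 and 124 scaled reads at ZT6 and ZT18 on HF and 32.0 and 20.4 on RD, log2 folds of 0.63 and -0.63. Ifit1, an interferon-induced gene, had log2 folds of 0.64 and -0.91. Hbb-bt, a β-globin, had 143 and 232 on HF and 634 and 412 on RD, log2 folds of 0.70 and -0.62. Rbp4 had log2 folds of 1.83 and -0.68, and Cyp2e1 of 2.02 and -0.78. Both are abundant in liver, and 24 of 28 hepatocyte genes, Cyp2e1 itself among them, were highest in the ZT18 HF library. Cyp2e1 also had 315 scaled reads at ZT6 on RD and 275 at ZT6 on HF.NOB. The part of liver transcripts in the values of Rbp4 and Cyp2e1 was not tested.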

How the results depend on the processing

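The counts on HF moved with settings that act on genes with few reads. Against 2477 genes higher and 2081 lower, a pseudocount of 5 gave 1375 and 1058, a mean of at least 10 gave 748 and 616, and a 2-fold threshold 1399 and 947; without a filter on the mean 3243 were lower. Across the diets, where 0 were called higher and 1 lower, edgeR called 206 and 119 without the HF.NOB libraries, 61 and 26 without HF, 15 and 5 without RD, and 10 and 3 without the filter, and DESeq2 17 and 7. The fits without a diet have 2 libraries a side.

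With ZT18 HF.NOB set against ZT6 HF, an alternative chosen after seeing the data, the sign of 7 list medians turned: metallothioneins -0.14, cold-inducible genes 0.11, β-oxidation -0.043, glycolysis 0.044, nuclear respiratory chain -0.065, slow fibre 0.19 and adipocyte -0.11. So did those of Top2a (-0.34), Mstn (0.081), Chac1 (0.14), Mt1 (-0.15), Apln (-0.13), Oas1a (-0.75) and Myh7 (0.20). The cause was not tested. Under the other scalings, filters and pseudocounts none of the 205 named genes reversed.

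Depth limits genes with a mean under 50: on HF, the counting interval held 0 for most of those past 1.5-fold. With 1 library a side, no interval covers the spread between mice.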
